A study of Mus musculus with 54 samples.

Results

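RE and KO mouse liver was compared at ZT0, the hour of lights on, across all genes of the expression table. The comparison takes 6 of the 54 liver RNA-seq libraries of the series, 3 from RE mice and 3 from KO mice, chosen by genotype and time label alone. In RE mice, Syt10-Cre, a driver active in the suprachiasmatic nucleus, restored Bmal1 expression in that brain region while the floxed STOP allele of Bmal1 remained in the liver. KO mice carried the same floxed STOP allele without the driver, so that Bmal1 was knocked out in all tissues. The 3 WT livers of ZT0, from mice with Bmal1 in all tissues, are given beside both. RE and KO livers thus share the liver without its own clock and differ in the brain clock. The other 30 RE and KO libraries cover ZT4, ZT8, ZT12, ZT16 and ZT20, with 3 livers in each genotype. The labels give no age, sex, feeding record or activity record, and where else Syt10-Cre was active was not analysed here.

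The mammalian circadian clock is a loop in which BMAL1 and CLOCK switch on the Per and Cry genes, whose proteins then block BMAL1 and CLOCK. The suprachiasmatic nucleus sets the daily timing of feeding, body temperature and hormones such as glucocorticoids, and these reach the liver as signals that act beside the liver's own clock. Lights on marks the change from the active and feeding phase of a mouse to its rest phase, when glucose output from the liver takes over from food. The comparison therefore asks what a working brain clock adds, at that hour, to a liver that has none.

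No gene passed the test between RE and KO liver at ZT0. Among 10932 genes tested with limma on log2(FPKM + 1), 0 (0%) had an adjusted p under 0.05, and the smallest adjusted p was 0.125, for the receptor gene Fgfrl1. The unadjusted p was under 0.05 for 595 genes (5.44% of those tested), of which 278 (2.54%) were higher and 317 (2.9%) lower in RE. All 3 RE livers lay above all 3 KO livers for 457 genes (4.18%) and below them for 540 genes (4.94%). Where no gene differs, shares of about this size are also expected, for 3 livers against 3 and for an unadjusted p under 0.05. The split of the 595 depended on the scaling: with the libraries' medians made equal, 357 of 603 genes were higher in RE. The count also rested on single livers. It was 333 without KO liver 2 and 987 without RE liver 0.

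The genes named next come from those that lay apart without overlap, and were chosen with their values known. Pck1 and G6pc, which encode enzymes of glucose production, and Sgk1, Per1 and Tsc22d3, which glucocorticoid hormone induces, lay lower in every RE liver than in any KO liver. Of 14 tested glucocorticoid receptor targets, 4 lay lower in this way, against 4.94% of all tested genes. Others overlapped, Fkbp5 among them. Hsp90aa1, a chaperone gene, and Mcm2 to Mcm5, subunits of the replication helicase, lay higher in every RE liver. Of 19 tested heat shock genes, 7 lay higher in this way, against 4.18% of all tested genes, while Hspa1a and Hspa1b had differences below 0. The core clock genes other than Per1 overlapped between the genotypes. None of these differences passed the adjusted test.

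**Figure D1:**
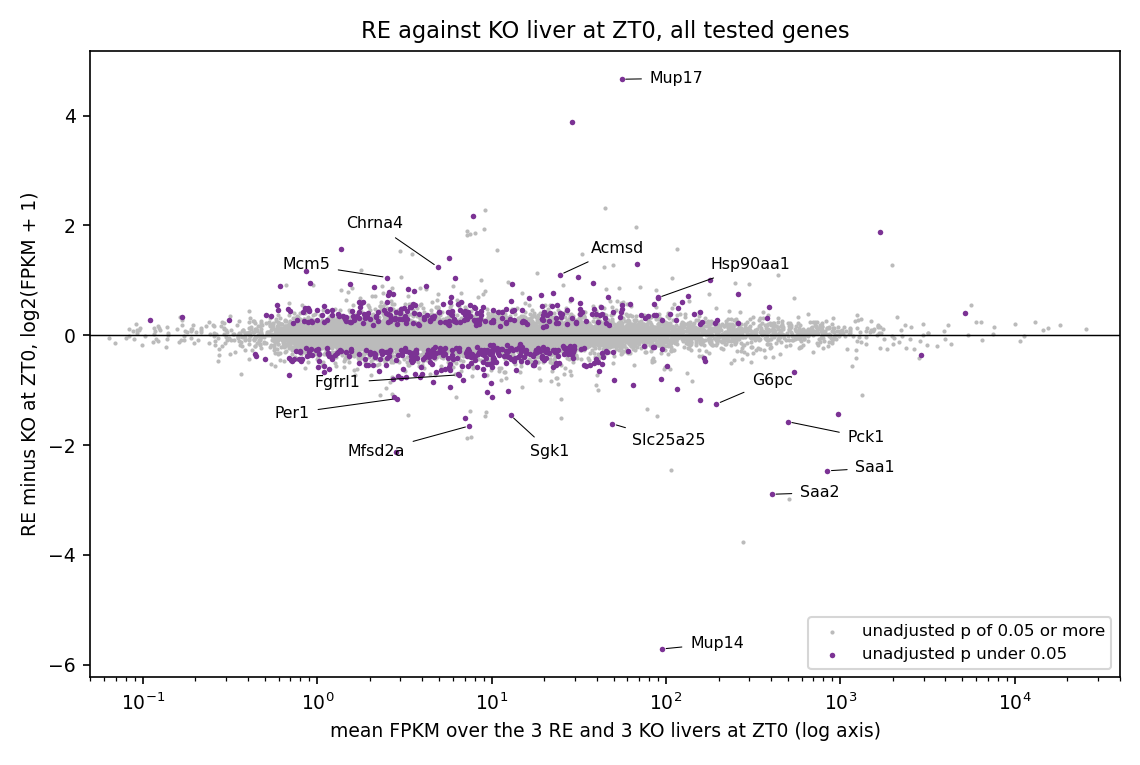
Each point is 1 of the 10932 tested genes. The horizontal axis gives its mean FPKM over the 6 livers on a log axis, and the vertical axis gives RE minus KO at ZT0 in log2(FPKM + 1). Purple points are the 595 genes with an unadjusted p under 0.05, and most genes lie close to 0.

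A lack of calls does not show that the livers were alike, so the width of the intervals was examined. The median difference over all tested genes was -0.0019 log2 units, and the 5th and 95th percentiles were -0.32 and 0.31. The median SE of a difference was 0.151. Of 6336 genes that averaged 5 FPKM or more over the 6 livers, 5924 (93.5%) had a 95% interval that stayed within 1 log2 unit of 0. The intervals of the other 412 genes reached past 1 log2 unit in at least 1 direction. For 4796 of the 6336 genes (75.7%) the interval stayed within a 1.5-fold change. The intervals take their spread from all 36 RE and KO libraries, not from the 6 livers alone. They can be too narrow where the RE livers of ZT0 varied more than that. Beside the 0 genes called here, the fit that also held the WT libraries called 1026 genes (9.39%) between RE and WT at ZT0 and 946 genes (8.65%) between KO and WT at ZT0. These comparisons share libraries with each other and with the RE and KO comparison.

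The 6 libraries were close in their totals, and the RE livers varied more among themselves. Summed FPKM lay between 637535 and 740137, and between 14654 and 15383 genes were above 0. The median SD of a gene was 0.202 log2 units in the RE livers, the second highest of the 18 groups, and 0.124 in the KO livers. Livers are named by the number of their column (0, 1 and 2), in which order values are given throughout. KO liver 2 stood apart in acute phase genes: Saa1, a serum protein of inflammation, had 86.8, 96.8 and 25.2 FPKM in the RE livers, against 46.5, 174 and 4620.0 FPKM in the KO livers. RE liver 2 stood apart in male-biased liver genes, whose list mean of log2(FPKM + 1) was 8.49, 8.22 and 7.01 in the RE livers, against 8.19, 7.74 and 7.74 in the KO livers. Among them Cyp7b1, an oxysterol hydroxylase, had 558, 411 and 64.7 FPKM in the RE livers, against 246, 183 and 135 FPKM in the KO livers. Over 5 tested female-biased liver genes, at low values, RE liver 2 was the highest. Their list mean was 0.42, 0.32 and 1.58 in the RE livers, against 0.66, 0.73 and 0.35 in the KO livers. Medians of gene lists are also given without one of these livers where that moved them by over 1.5-fold. Differences are RE minus KO in log2(FPKM + 1), with SE and 95% interval from the limma fit.

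The livers held hepatocyte RNA throughout, with the sum of 10 hepatocyte markers at 44976 to 55153 FPKM in RE and 41065 to 52153 FPKM in KO. Kupffer cell markers, 10 in all, summed to 87.7 to 187 FPKM in RE and 94.8 to 131 FPKM in KO. The pancreatic genes Cpa1, Pnlip, Cela3b, Prss2, Amy2a5 and Cel, the muscle genes Acta1, Ckm and Myh4 and the fat genes Plin1, Lep and Retn were listed at 0 in all 6 livers. In whole liver, fewer cells of a type and less RNA per cell cannot be told apart.

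Arntl, the gene for BMAL1, was measured first, as the gene that the STOP allele targets. It had 15.5, 13.1 and 13.7 FPKM in the RE livers, 13.5, 13.3 and 12.6 FPKM in the KO livers and 10.3, 9.57 and 9.25 FPKM in the WT livers. The RE and KO livers overlapped, with a log2 difference of 0.09 (SE 0.11, 95% interval -0.13 to 0.32, adjusted p = 0.969). FPKM of the whole gene does not tell RNA with the STOP from RNA without it, so these values do not check the genotypes.

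The core clock genes formed the first group, and 0 of its 19 tested members were called. Only Per1, whose protein represses the clock and whose RNA also responds to glucocorticoids and fasting signals, had no overlap between the genotypes. It had 1.07, 1.63 and 1.28 FPKM in the RE livers, 5.0, 2.37 and 5.76 FPKM in the KO livers and 0.568, 0.380 and 0.518 FPKM in the WT livers. The RE livers thus lay between the WT and the KO livers, and the RE minus KO difference was -1.16 (SE 0.41, 95% interval -1.99 to -0.32, adjusted p = 0.760). Without KO liver 2 it was -0.96. Changes at values this low are understated on the log2(FPKM + 1) scale.

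The other clock repressors did not share this pattern. Per2 had 6.77, 6.02 and 2.10 FPKM in the RE livers, against 3.63, 3.56 and 2.32 FPKM in the KO livers, with RE liver 2 below every KO liver and the other two RE livers above them all. Cry1, the partner of the period proteins, had 24.6, 27.8 and 19.5 FPKM in the RE livers, against 17.8, 20.0 and 19.1 FPKM in the KO livers, a difference of 0.31 (SE 0.18, 95% interval -0.05 to 0.67, adjusted p = 0.912). Its lowest RE liver lay below the highest KO liver. Cry2 had a difference of 0.23 (SE 0.14, 95% interval -0.07 to 0.53, adjusted p = 0.924). Both intervals include 0 and also include a value above 0.5 log2 units.

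Nr1d1 and Nr1d2 encode the REV-ERB receptors, direct targets of BMAL1 that repress Arntl in turn. Nr1d1 had 0.526, 0.705 and 1.01 FPKM in the RE livers, 1.02, 1.28 and 0.900 FPKM in the KO livers and 4.08, 9.99 and 5.47 FPKM in the WT livers. The RE and KO livers overlapped near 1 FPKM, and the 3 WT livers lay above them all. Nr1d2 likewise overlapped between RE and KO, with a difference of -0.32 (SE 0.24, 95% interval -0.81 to 0.17, adjusted p = 0.948). Dbp, another direct target of BMAL1 and a transcription factor of the PAR bZIP family, had 2.33, 1.53 and 2.38 FPKM in the RE livers, against 2.97, 1.78 and 1.70 FPKM in the KO livers. The difference of Dbp was -0.02 (SE 0.21, 95% interval -0.45 to 0.40, adjusted p = 1.00). Over the 19 genes the median difference was 0.07, against -0.0019 over all tested genes. Bhlhe41, which encodes a repressor of the clock, stayed below 0.02 FPKM in all 6 livers.

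**Figure D2:**
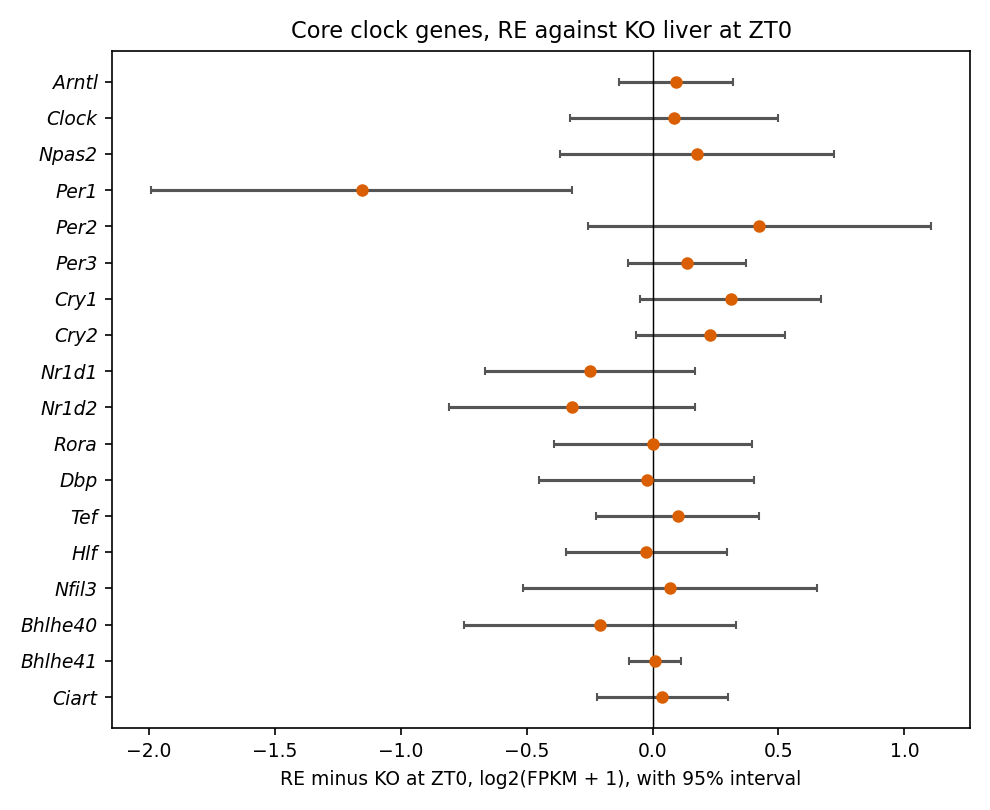
Points give RE minus KO at ZT0 in log2(FPKM + 1) for 18 of the 19 core clock genes, and bars give 95% intervals from the limma fit. Per1, at -1.16, is the one gene whose interval excludes 0 before adjustment, and the other intervals shown include 0.

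A pair of promoters is shown because Per1 is the clock gene that stood apart and Fgfrl1 is the gene with the smallest p of the comparison. The sequences are the 250 bases before a transcription start of the gene in RefSeq (GRCm38.p6), read 5′ to 3′ on the gene's strand. Capitals mark the E-box CACGTG, the motif that BMAL1 and CLOCK bind. That for Per1 lies at chr11:69098699-69098948 (plus strand) and that for Fgfrl1 at chr5:108693979-108694228 (plus strand). The Per1 window lies inside the annotated gene, which begins at chr11:69095108, so the start used is not the first of that gene.
Per1: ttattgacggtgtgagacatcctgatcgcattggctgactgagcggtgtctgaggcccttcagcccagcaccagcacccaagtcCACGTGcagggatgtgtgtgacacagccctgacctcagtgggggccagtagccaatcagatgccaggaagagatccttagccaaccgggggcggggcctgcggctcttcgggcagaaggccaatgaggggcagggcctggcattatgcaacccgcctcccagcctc
Fgfrl1: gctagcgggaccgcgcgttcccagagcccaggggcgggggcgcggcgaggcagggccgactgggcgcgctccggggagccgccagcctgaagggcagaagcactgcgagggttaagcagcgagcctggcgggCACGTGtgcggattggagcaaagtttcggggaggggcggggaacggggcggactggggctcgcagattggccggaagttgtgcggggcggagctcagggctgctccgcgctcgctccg
The E-box starts at -166 in Per1 and at -118 in Fgfrl1, counted from the transcription start that each window precedes. It occurs in 6.05% of 27025 RefSeq promoters of this length on either strand, and in 7 of the 66 genes, out of 88 named, that have an entry in the RefSeq promoter table (Apoa5, Bhlhe41, Ciart, Cry1, Fgfrl1, Per1 and Tef). The glucocorticoid element, searched as its palindrome on both strands, occurs in 0.381% of the promoters and in 0 of those 66. A match describes these letters only, and no match says only that the letters are not in this window.

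Genes of glucose production made up the next group. Pck1 encodes phosphoenolpyruvate carboxykinase, the entry enzyme of gluconeogenesis, and G6pc encodes the glucose-6-phosphatase that releases free glucose. Both lay lower in every RE liver than in any KO liver. Neither passed the adjusted test.

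Pck1 (chr2:173153073-173159274, protein coding) had 160.4, 239 and 388 FPKM in the RE livers, 767, 772 and 671 FPKM in the KO livers and 311, 442 and 183 FPKM in the WT livers. The KO livers lay within a narrow band at the top and the RE and WT livers overlapped below it. The RE minus KO difference was -1.58 (SE 0.48, 95% interval -2.56 to -0.59, adjusted p = 0.731), and it ran from -1.90 without RE liver 2 to -1.27 without RE liver 0. G6pc (chr11:101367716-101377903, protein coding) had 116, 101 and 123 FPKM in the RE livers, 249, 231 and 347 FPKM in the KO livers and 152, 257 and 123 FPKM in the WT livers. The 3 RE livers lay close together below all KO livers, and the WT livers spread over both. The difference was -1.25 (SE 0.40, 95% interval -2.08 to -0.43, adjusted p = 0.731), and without KO liver 2, the highest KO liver, it was -1.08.

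Of the 17 tested genes listed for gluconeogenesis and fasting, 0 were called, and 3 were lower and 0 higher in RE at an unadjusted p under 0.05 (2.9% of all tested genes were lower). For 5 of the 17, all RE livers lay below all KO livers, as they did for 4.94% of all tested genes. The list mean of log2(FPKM + 1) was 5.34, 5.46 and 5.81 in RE and 5.88, 5.86 and 6.29 in KO, without overlap. The median difference was -0.30 log2 units, and -0.19 without KO liver 2. Gpt2, a mitochondrial alanine aminotransferase that feeds pyruvate into gluconeogenesis, had 84.8, 69.3 and 88.8 FPKM in the RE livers, against 111, 106 and 146 FPKM in the KO livers. Igfbp1, a secreted binding protein that insulin suppresses, had 21.8, 21.2 and 107 FPKM in the RE livers, against 69.2, 66.7 and 245 FPKM in the KO livers, so that RE liver 2 overlapped the KO livers. Sds, a serine dehydratase of the same fasting response, did not follow: RE liver 2 was its highest liver, at 326 FPKM.

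Glycogen and glucose entry genes were lower in RE in few members, none of them called. Of 15 tested genes, 4 were lower in RE at an unadjusted p under 0.05, against 2.9% of all tested genes. Stbd1, which tethers glycogen to membranes, had 33.6, 33.6 and 28.8 FPKM in the RE livers, 47.4, 52.8 and 51.1 FPKM in the KO livers and 35.8, 28.0 and 33.4 FPKM in the WT livers. The RE and WT livers overlapped and all KO livers lay above them, with a difference of -0.64 (SE 0.20, 95% interval -1.06 to -0.23, adjusted p = 0.731). Slc2a2, the GLUT2 glucose transporter of hepatocytes, had 58.8, 28.3 and 24.7 FPKM in the RE livers, against 49.5, 53.7 and 88.7 FPKM in the KO livers, with RE liver 0 inside the KO range. The median of the list was -0.18, and -0.04 without KO liver 2.

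Glucocorticoid receptor targets made up the third group, and none of its members was called. Of 14 tested genes, 4 were lower in RE at an unadjusted p under 0.05. All RE livers lay below all KO livers for 4 genes. Over all tested genes these shares were 2.9% and 4.94%. The list mean of log2(FPKM + 1) was 3.90, 4.09 and 4.55 in the RE livers, 4.64, 4.70 and 5.50 in the KO livers and 4.01, 3.86 and 3.70 in the WT livers. The RE and KO livers did not overlap, and KO liver 2 was the highest. The median difference was -0.52, and -0.28 without that liver.

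Sgk1 (chr10:21882184-21999903, protein coding), a kinase that glucocorticoids induce, had 7.56, 6.12 and 5.42 FPKM in the RE livers, 16.0, 23.5 and 18.5 FPKM in the KO livers and 7.05, 5.94 and 5.26 FPKM in the WT livers. Every KO liver lay well above the highest RE liver, and the RE and WT livers overlapped closely. The difference was -1.46 (SE 0.53, 95% interval -2.55 to -0.37, adjusted p = 0.812), and -1.48 without KO liver 2. Tsc22d3, which encodes the glucocorticoid-induced leucine zipper protein GILZ, had 68.9, 80.6 and 54.3 FPKM in the RE livers, 117, 85.4 and 159 FPKM in the KO livers and 50.5, 28.1 and 42.5 FPKM in the WT livers. The highest RE liver came close to the lowest KO liver, and the difference was -0.79 (SE 0.35, 95% interval -1.51 to -0.07, adjusted p = 0.887), or -0.57 without KO liver 2. Errfi1, a feedback inhibitor of the EGF receptor, overlapped at RE liver 0, with 150.3, 80.6 and 61.8 FPKM in the RE livers, against 198, 143 and 309.8 FPKM in the KO livers.

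Other members of the list overlapped. Fkbp5, a chaperone that restrains the glucocorticoid receptor and is a common marker of its activity, had 3.35, 2.91 and 7.95 FPKM in the RE livers, 3.26, 5.35 and 6.55 FPKM in the KO livers and 7.12, 5.82 and 5.49 FPKM in the WT livers. Its highest value was RE liver 2, and the difference was -0.14 (SE 0.48, 95% interval -1.14 to 0.85, adjusted p = 0.998). Mt1, a metal-binding metallothionein that inflammation also induces, had 3.30, 7.65 and 149 FPKM in the RE livers, against 26.1, 90.6 and 368 FPKM in the KO livers. The highest RE liver was RE liver 2 and the highest KO liver was KO liver 2, and KO liver 2 was also the one with high Saa1. The part of that liver's acute phase state in the Mt1 difference was not tested.

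**Figure D3:**
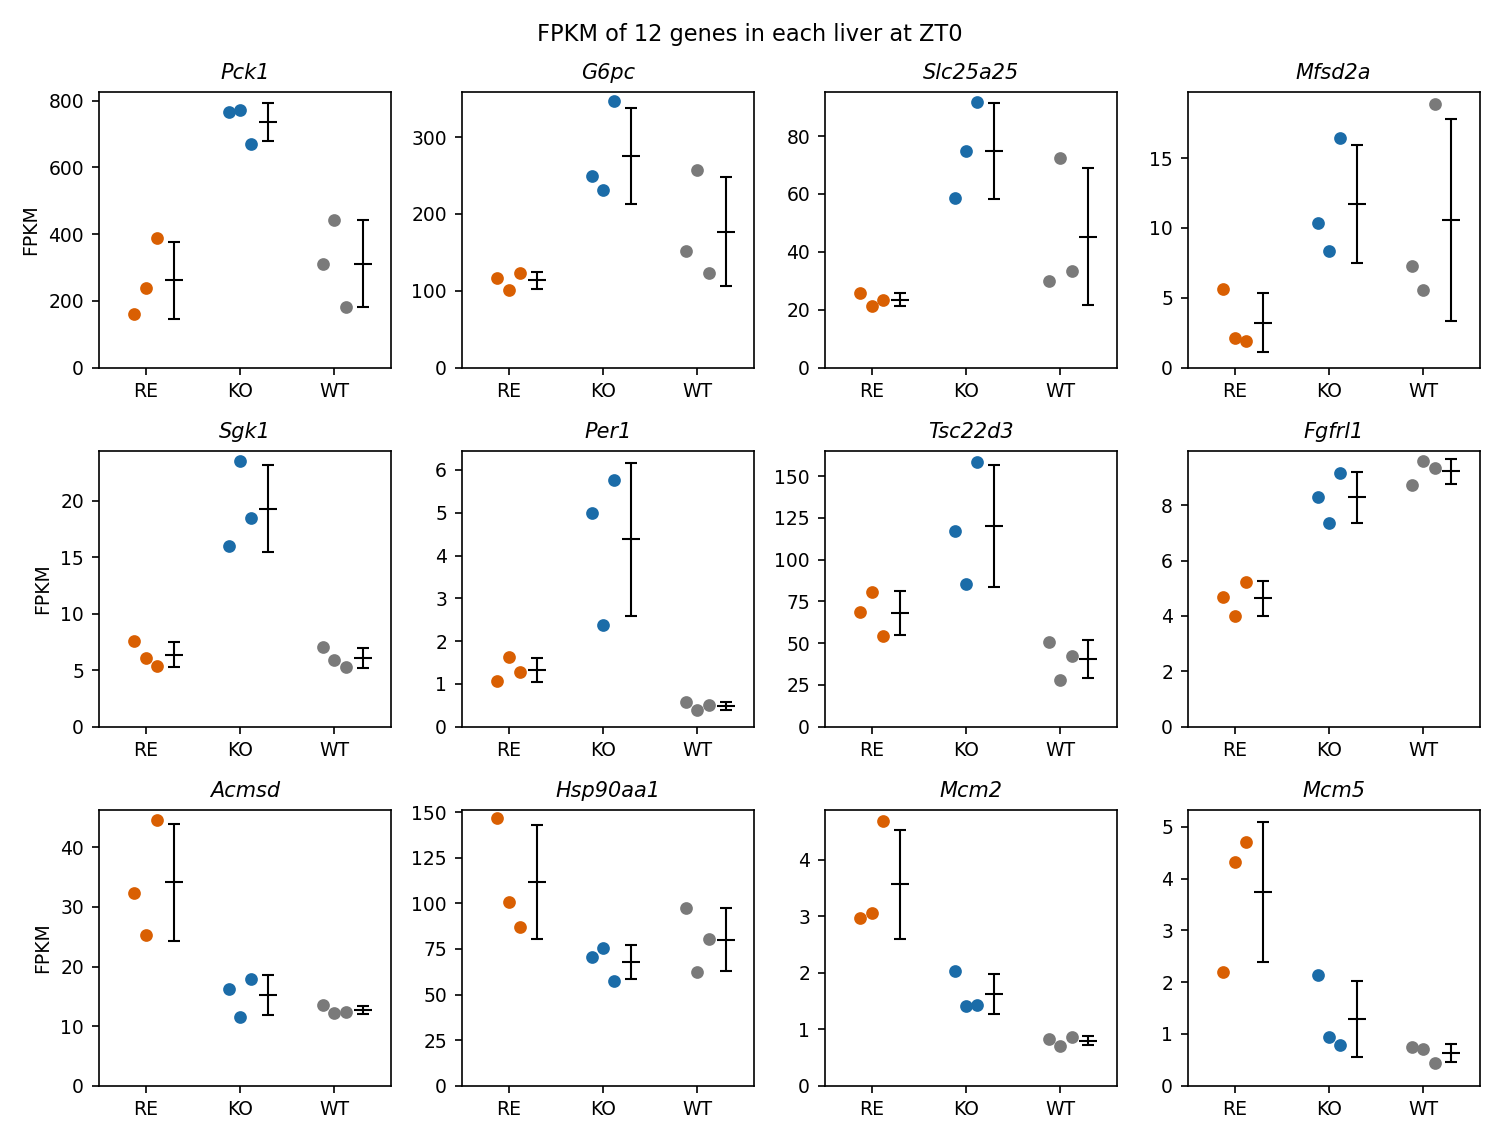
Points give FPKM in each of the 3 RE, 3 KO and 3 WT livers at ZT0 for 12 genes, and the black marks give the mean and SD (n = 3). For Pck1, G6pc, Slc25a25, Mfsd2a, Sgk1, Per1, Tsc22d3 and Fgfrl1 every RE point lies below every KO point, and for Acmsd, Hsp90aa1, Mcm2 and Mcm5 every RE point lies above.

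Beyond these lists, the largest differences without overlap were ranked where RE or KO averaged 5 FPKM or more. They were chosen after their values were seen and none was called. Among those above 0 FPKM in all 6 livers, the lowest in RE was Mfsd2a, a transporter of lysophosphatidylcholine that fasting induces in liver, with 5.63, 2.10 and 1.89 FPKM in the RE livers, against 10.3, 8.35 and 16.4 FPKM in the KO livers. Its difference was -1.65 (SE 0.63, 95% interval -2.94 to -0.36, adjusted p = 0.845), and -1.40 without KO liver 2. Slc25a25, a mitochondrial carrier of ATP-Mg and phosphate, had 25.9, 21.2 and 23.4 FPKM in the RE livers, 58.5, 74.8 and 91.7 FPKM in the KO livers and 29.9, 72.4 and 33.5 FPKM in the WT livers. The RE livers were close together, below every KO liver, and one WT liver reached the KO range. Angptl4, a fasting-induced inhibitor of lipoprotein lipase, had 3.09, 4.05 and 3.33 FPKM in the RE livers, against 10.9, 4.29 and 29.6 FPKM in the KO livers. The difference of Angptl4 was -1.48 with all livers and -0.83 without KO liver 2, and KO liver 1 lay just above the RE livers.

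Fgfrl1 (chr5:108694229-108706950, protein coding) had the smallest p of the comparison. It encodes a receptor of the FGF receptor family that lacks the kinase domain. It had 4.70, 3.98 and 5.22 FPKM in the RE livers, 8.29, 7.37 and 9.19 FPKM in the KO livers and 8.73, 9.60 and 9.36 FPKM in the WT livers. The RE livers lay below all KO and WT livers, which overlapped, and the difference was -0.72 (SE 0.13, 95% interval -1.0 to -0.45, adjusted p = 0.125). Without each RE liver in turn it stayed between -0.80 and -0.64.

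Acmsd had one of the largest differences in the other direction. It encodes the enzyme that diverts tryptophan breakdown away from NAD synthesis. It had 32.4, 25.3 and 44.6 FPKM in the RE livers, 16.3, 11.5 and 17.8 FPKM in the KO livers and 13.5, 12.2 and 12.4 FPKM in the WT livers, and the KO and WT livers lay together below the RE livers. The difference was 1.10 (SE 0.33, 95% interval 0.43 to 1.78, adjusted p = 0.731). Sgk2, a kinase related to Sgk1, had 19.7, 13.6 and 19.7 FPKM in the RE livers, 9.53, 8.88 and 7.66 FPKM in the KO livers and 31.3, 22.8 and 26.7 FPKM in the WT livers. In Sgk2 the RE livers lay between the KO and the WT livers, and in Loxl4, a lysyl oxidase family member, they lay above both, with 22.0, 22.0 and 16.9 FPKM in the RE livers, 11.0, 15.3 and 10.6 FPKM in the KO livers and 3.82, 2.71 and 2.13 FPKM in the WT livers.

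Heat shock proteins held several members that lay higher in RE, and 0 were called. Of 19 tested genes, 8 were higher at an unadjusted p under 0.05 and 0 were lower, and all RE livers lay above all KO livers for 7 genes. Over all tested genes 2.54% were higher at that p and 4.18% had all RE livers above. These 7 were Hsp90aa1, Hsp90ab1, Fkbp4, Stip1, Ahsa1, Hspb1 and Hspd1. The median difference over the list was 0.24, and 0.36 without RE liver 2. Hsp90aa1, the inducible cytosolic HSP90, had 147, 101 and 87.3 FPKM in the RE livers, 70.5, 75.7 and 57.6 FPKM in the KO livers and 97.2, 62.5 and 80.4 FPKM in the WT livers, a difference of 0.68 (SE 0.26, 95% interval 0.14 to 1.22, adjusted p = 0.845). Its RE livers lay above the KO livers, and the WT livers overlapped both.

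Its partners had smaller differences. Fkbp4, a co-chaperone of steroid receptors, had 135, 158 and 121 FPKM in the RE livers, against 105, 96.2 and 89.8 FPKM in the KO livers. Stip1, which links HSP70 to HSP90, had 48.0, 49.0 and 39.3 FPKM in the RE livers, against 34.0, 35.6 and 27.3 FPKM in the KO livers. Ahsa1, which activates the HSP90 ATPase, had 83.4, 97.5 and 84.7 FPKM in the RE livers, against 74.4, 69.1 and 63.5 FPKM in the KO livers, and in all 3 genes the ranges were apart. Hsph1, an HSP110 chaperone, overlapped narrowly, with 27.3, 26.6 and 18.4 FPKM in the RE livers, against 12.3, 20.4 and 10.5 FPKM in the KO livers. The heat-inducible genes Hspa1a and Hspa1b had differences of -0.27 (SE 0.18, 95% interval -0.64 to 0.09, adjusted p = 0.929) and -0.54 (SE 0.35, 95% interval -1.26 to 0.19, adjusted p = 0.929), below 0 though not called. Hspb1, a small heat shock protein, had 5.74, 4.36 and 7.27 FPKM in the RE livers, 2.57, 2.36 and 2.81 FPKM in the KO livers and 60.8, 37.3 and 39.9 FPKM in the WT livers. Its RE and KO livers did not overlap and both lay far below the WT livers.

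The unfolded protein response genes, which restore folding in the endoplasmic reticulum, lay higher in RE on the median but overlapped throughout. Of 20 tested genes, 0 were called, 4 were higher at an unadjusted p under 0.05 and 0 had ranges apart, where 2.54% of all tested genes were higher and 4.18% lay above without overlap. Hspa5, the main chaperone of that compartment, had 761, 712 and 469 FPKM in the RE livers, against 362, 694 and 241 FPKM in the KO livers. KO liver 1 lay with the higher RE livers and KO liver 2 lay lowest. The list mean was 6.88, 6.94 and 6.39 in RE and 6.17, 6.84 and 5.64 in KO. The median difference was 0.47 with all livers and 0.19 without KO liver 2.

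Cell cycle genes gave values of low FPKM. Of 14 tested genes, 0 were called, 6 were higher in RE at an unadjusted p under 0.05, and 5 had all RE livers above all KO livers, against 2.54% and 4.18% of all tested genes. The 6 members were Mcm2 to Mcm7, the subunits of the helicase that opens DNA for replication. Mcm2 had 2.96, 3.05 and 4.68 FPKM in the RE livers, 2.03, 1.41 and 1.42 FPKM in the KO livers and 0.820, 0.704 and 0.860 FPKM in the WT livers, a difference of 0.79 (SE 0.28, 95% interval 0.22 to 1.36, adjusted p = 0.760). Mcm3 had 3.60, 4.51 and 5.48 FPKM in the RE livers, against 3.19, 1.79 and 1.40 FPKM in the KO livers. Mcm5 had 2.19, 4.32 and 4.70 FPKM in the RE livers, 2.14, 0.944 and 0.782 FPKM in the KO livers and 0.747, 0.715 and 0.435 FPKM in the WT livers, a difference of 1.05 (SE 0.40, 95% interval 0.23 to 1.88, adjusted p = 0.845), in which RE liver 0 came close to KO liver 0. Ccnd1, the cyclin of the early cell cycle, had 3.51, 3.97 and 3.02 FPKM in the RE livers, against 4.00, 5.03 and 2.16 FPKM in the KO livers. Its ranges overlapped, with a difference of -0.03 (95% interval -0.99 to 0.93). The means of log2(FPKM + 1) over the 14 genes also overlapped, at 2.00, 2.32 and 2.29 in RE and 2.14, 1.72 and 1.64 in KO. Kupffer cell markers had a median difference of 0.31, and 0.08 without RE liver 2, and their part in the Mcm values was not tested.

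**Figure D4:**
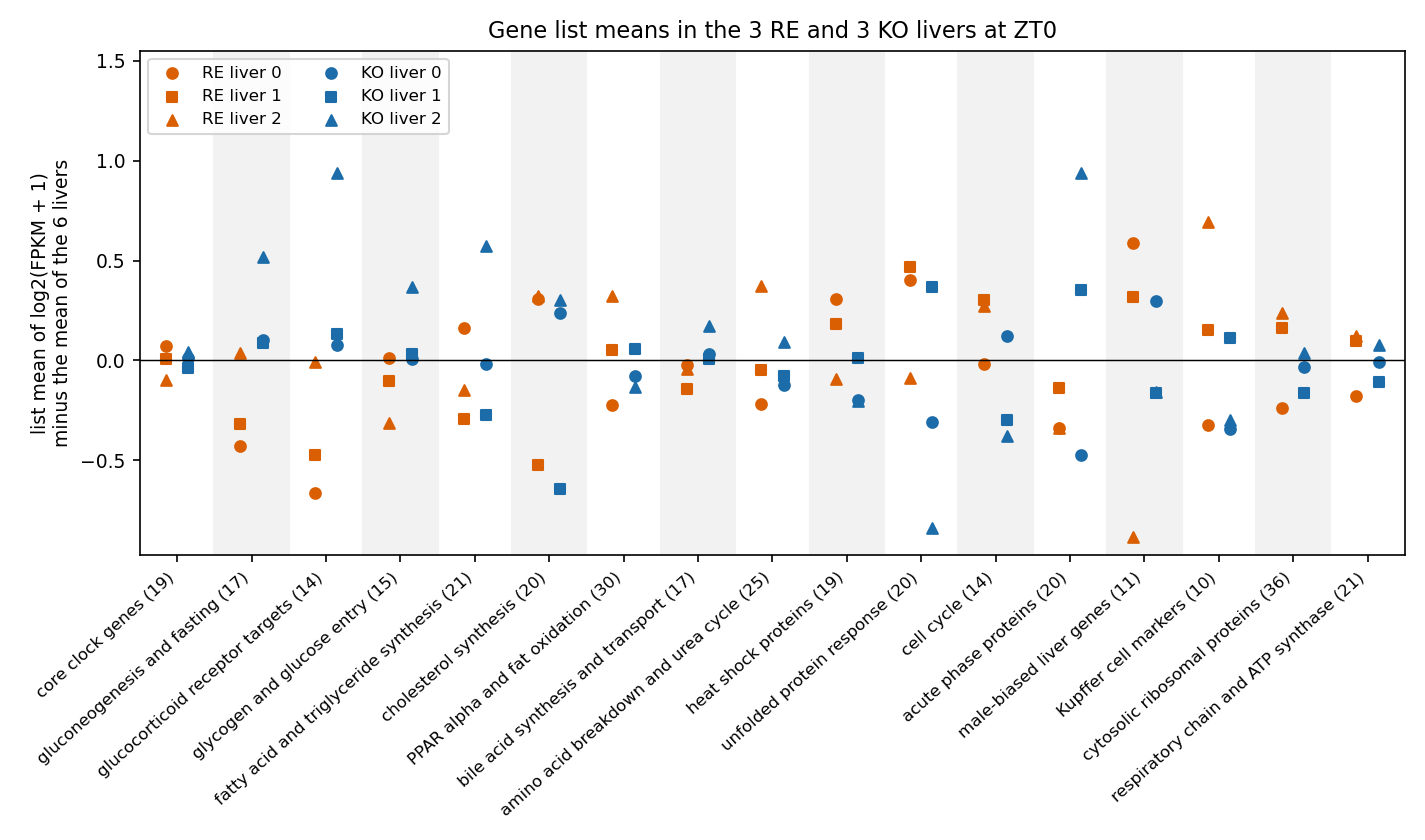
Points give the mean of log2(FPKM + 1) over the tested members of each gene list in each RE and KO liver, minus the mean of the 6 livers; the number of members is in brackets. The RE and KO points are apart for gluconeogenesis, glucocorticoid targets and bile acids, and the cholesterol and unfolded protein lists differ more between livers of one genotype than between genotypes.

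In lipid metabolism 0 genes were called. Of 20 cholesterol synthesis genes, 0 had an unadjusted p under 0.05. Their list mean was 7.51, 6.67 and 7.52 in RE and 7.43, 6.55 and 7.50 in KO, so that liver 1 of both genotypes lay well below its companions. Sqle, the squalene epoxidase, had a difference of 0.14 (SE 0.42, 95% interval -0.71 to 1.00, adjusted p = 0.992). Of 30 genes of PPAR alpha and fat oxidation, 0 had an unadjusted p under 0.05. Cpt1a, which admits fatty acids into mitochondria, had a difference of -0.35 (SE 0.31, 95% interval -1.0 to 0.29, adjusted p = 0.967).

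In fatty acid and triglyceride synthesis 2 of 21 genes were lower in RE at an unadjusted p under 0.05 (2.9% of all tested genes), and 0 were called. Scd1, the stearoyl-CoA desaturase, had 1026, 402 and 871 FPKM in the RE livers, 1015, 907 and 3789 FPKM in the KO livers and 3062, 3338 and 3209 FPKM in the WT livers. KO liver 2 alone among the RE and KO livers reached the WT level. Fasn, the fatty acid synthase, and Acaca, the acetyl-CoA carboxylase, had differences of 0.02 (SE 0.53, 95% interval -1.06 to 1.09, adjusted p = 1.00) and -0.23 (SE 0.28, 95% interval -0.80 to 0.35, adjusted p = 0.971). Both depended on single livers: Acaca was at 0.11 without KO liver 2, and Fasn at 0.31 without that liver and -0.34 without RE liver 0. Cyp7a1, whose enzyme limits the making of bile acids, had 14.9, 22.2 and 47.3 FPKM in the RE livers, against 47.7, 39.7 and 71.3 FPKM in the KO livers, with RE liver 2 inside the KO range and a difference of -1.0 (SE 0.56, 95% interval -2.16 to 0.15, adjusted p = 0.910). Cps1, which starts the urea cycle, differed by 0.08 (SE 0.21, 95% interval -0.34 to 0.50, adjusted p = 0.988). Alas1, the entry enzyme of haem synthesis, had 59.9, 117 and 34.7 FPKM in the RE livers, against 72.1, 262 and 43.1 FPKM in the KO livers, and its interval of -2.52 to 1.37 allows a large change in either direction.

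The position of ZT0 in the day was then examined within each genotype. In RE liver, ZT0 was set against the mean of the other 5 RE times, and 69 genes (0.631%) were called, 32 higher and 37 lower at ZT0. In KO liver the same test called 0 genes (0%), with 351 at an unadjusted p under 0.05. The RE count was unstable. It was 40 without KO liver 0, 234 without RE liver 0, 0 without RE liver 1 and 1 without RE liver 2, and it was 0 with the RE libraries alone, an alternative chosen after seeing the data.

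The direct test, whether the RE minus KO difference at ZT0 differed from the mean of that difference at the other 5 times, called 0 genes (0%), with 838 at an unadjusted p under 0.05. Among the 8 genes with its smallest p were Timeless, Hmox2, Pold1, Slc36a1os, Sgsm1, Ablim1 and Mgme1. Timeless, which stabilises replication forks, had 0.993, 1.05 and 1.24 FPKM in the RE livers, against 0.610, 0.509 and 0.570 FPKM in the KO livers, and the ZT0 difference exceeded that of the other times by 0.60 (adjusted p = 0.160). Pold1, the catalytic subunit of DNA polymerase delta, had 1.76, 2.07 and 2.89 FPKM in the RE livers, against 1.59, 1.23 and 0.981 FPKM in the KO livers. Both genes lay higher in every RE liver, at low FPKM. Hmox2, the constitutive haem oxygenase, had 28.0, 27.0 and 27.4 FPKM in the RE livers, against 35.9, 39.8 and 45.7 FPKM in the KO livers and was not called (adjusted p = 0.445).

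The other 5 of the 8 had adjusted p values for that test of 0.445 to 0.487. Mgme1, a mitochondrial exonuclease that maintains mitochondrial DNA, had 4.19, 5.33 and 3.89 FPKM in the RE livers, against 2.72, 3.79 and 3.02 FPKM in the KO livers. Sgsm1, Ablim1 and Slc36a1os differed at ZT0 by 0.72, 0.61 and -0.47, the last of them a long noncoding RNA antisense to Slc36a1 whose reads cannot be told apart from those of its partner unless counting used the strand. In the test of the ZT0 difference against the other times, Slc36a1os was called when KO liver 1 was left out.

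Among the 69 genes called within RE, G6pc fell at ZT0 by 1.32 log2 units (adjusted p = 0.0457). The mean of G6pc was 114 FPKM at ZT0 in RE, and 205 to 382 FPKM at the other 5 times. In KO liver its mean was 276 FPKM at ZT0 and 178 to 260.1 FPKM at the other times. Slc2a2 fell by 1.01 (adjusted p = 0.0396), and Fgfrl1 by 0.50 (adjusted p = 0.0396), both against the mean of the other times. The RE mean of Fgfrl1 was 4.64 FPKM at ZT0 and 4.65 FPKM at ZT16, so that ZT0 was not apart from every other time. Acmsd rose by 1.18 (adjusted p = 0.0396), and Arntl rose by 0.37 (adjusted p = 0.0457). The smallest adjusted p was 0.00443, for Acot12, an acetyl-CoA thioesterase, which fell by 0.92. All these genes were singled out after their values were seen, and the same test in KO gave 0.37 for G6pc and -0.06 for Acmsd, neither called. Without RE liver 1 none of these genes was called within RE, and without RE liver 2 Acot12 alone was.

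Pck1, which was not called within RE, had a mean of 262 FPKM at ZT0 and 241 to 1136 FPKM at the other 5 times (adjusted p = 0.0767). In KO its means were 737 FPKM at ZT0 and 418 to 834 FPKM at the other times. The highest of these means, at ZT8, came from KO livers at 404, 362 and 1734 FPKM. The last of these livers lay above every RE liver of ZT8. At ZT8, ZT12 and ZT16 the Pck1 mean was 1136, 1012 and 1014 FPKM in RE, against 834, 486 and 445 FPKM in KO. The RE mean thus lay above the KO mean at these 3 times and below it at ZT0, ZT4 and ZT20. Per1 followed the same order at ZT0, with 1.32 FPKM in RE and 4.38 FPKM in KO, and at ZT16, with 8.66 FPKM in RE and 2.13 FPKM in KO. The test of the ZT0 difference against the other times gave -1.88 for Pck1 (adjusted p = 0.489) and -1.67 for Per1 (adjusted p = 0.489), and neither was called.

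**Figure D5:**
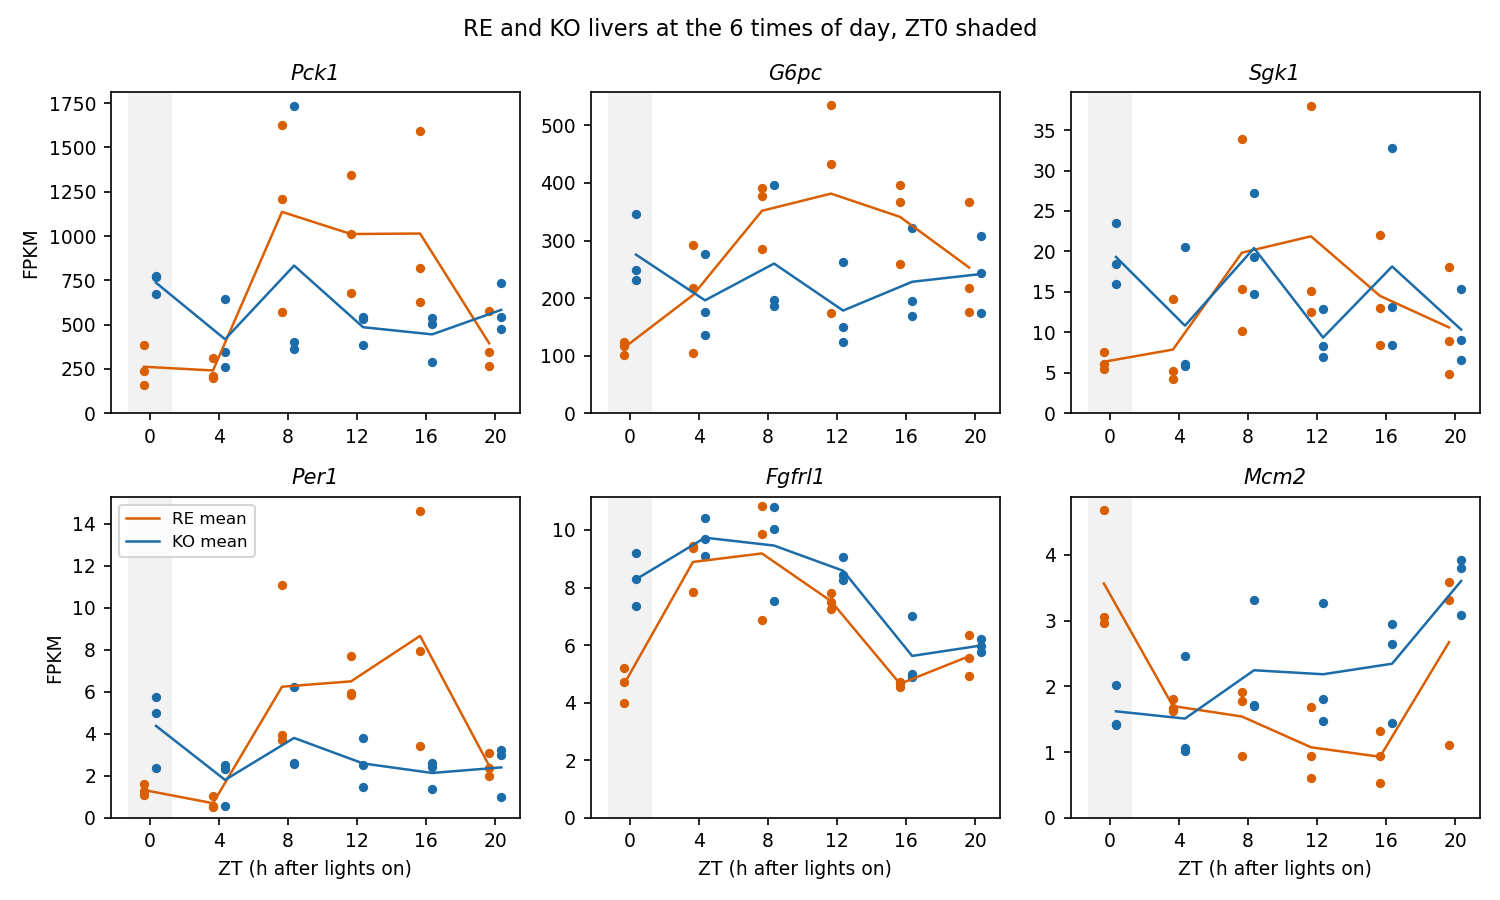
Points give FPKM in each RE and KO liver at the 6 times, lines give the group means (n = 3), and ZT0 is shaded. In RE the Pck1, G6pc and Per1 means are low at ZT0 and higher from ZT8 to ZT16, while in KO the ZT0 means of these 3 genes lie in the upper part of their range.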

How the data were processed

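Whole mouse liver RNA was sequenced in 54 libraries, 3 livers in each of 18 groups of genotype and time. TopHat and the build mm10 are named in the submitters' processing notes. The program behind the expression values and the TopHat version were not given in the sources used here. FPKM per gene symbol were deposited by the authors, already scaled by length and mapped fragments, so depth is unknown and precision rests on the spread between livers. Nothing in the labels ties livers to separate animals, so p-values measure the spread between these samples.

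Tests were run on log2(FPKM + 1), and this pseudocount of 1 understates changes of low genes. Genes that averaged 1 FPKM or more in any group were tested (10932 of 24346). The 36 RE and KO libraries were fitted as 12 group means with limma 3.58.1 in R 4.3.3 (eBayes with trend, 24 residual degrees of freedom), two-sided, with Benjamini-Hochberg adjustment over all tested genes and a call at an adjusted p under 0.05. WT values come beside them, and the counts against WT from a fit of all 54 libraries. The procedure was tested on simulated data. Lists are described by counts and medians.

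Named genes are the core clock genes, 12 enzymes of liver metabolism, the 8 genes with the smallest p for the ZT0 difference against the other 5 times, and called genes, of which there were none; further genes were chosen after their values were seen. Some genes of these sets are not reported here. Genes, lists and members were chosen with earlier results of these data known. Coordinates and promoters are from RefSeq (GRCm38.p6). Columns were assigned to groups only, since their numbers (0 to 2) differ from the replicate numbers of the titles.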

Additional observations from a re-analysis of the deposited data

How the results depend on the processing

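The 0 genes called between RE and KO at ZT0 stayed 0 under every alternative run except without a filter, where 1 gene (Slc9b1) was called. The count at an unadjusted p under 0.05 was 1074 without a filter and 333 to 987 when 1 liver was left out. For the ZT0 difference against the other times, 0 genes were called as reported, 1 in the fit of all 54 libraries (Timeless), 1 without a filter (Slc9b1) and 0 to 1 when 1 liver was left out (Slc36a1os, without KO liver 1). For ZT0 within RE, 69 genes were called as reported, 568 in the fit of all 54 libraries, 3 with array weights, 22 without a filter and 0 with the RE libraries alone, chosen after seeing the data; leaving out 1 liver gave 0 to 234. For ZT0 within KO, 2 were called with array weights and 5 without a filter. The cause was not tested. Across 1487 pairs of a named gene and an alternative, 0 were called (smallest adjusted p 0.0572) and 33 in 15 genes changed sign. The list medians for glucocorticoid targets (-0.75 to -0.28), gluconeogenesis (-0.43 to -0.19), heat shock (0.13 to 0.36) and cell cycle (0.20 to 0.48) kept their sign, and cholesterol synthesis (-0.20 to 0.39) did not. Equal medians moved the median of all genes to 0.0189. The columns do not carry the replicate numbers of the labels, and whether their own numbers (0 to 2) pair the ZT0 livers was not settled. Gene deviations of same-numbered RE and KO livers correlated at 0.023, 0.097 and 0.18, and those of other pairs at -0.17 to 0.078. Each RE liver correlated best with the KO liver of its own number, while KO liver 0 correlated best with RE liver 1. With a replicate block on the column number, added after seeing the data, 0 genes were called between RE and KO (598 at an unadjusted p under 0.05) and 43 for ZT0 within RE; with the block within each time these were 0, 648 and 10, and the other counts of calls stayed 0.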

Other observations

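Major urinary proteins, pheromone carriers secreted by the liver, differed most in size, and their genes share much of their sequence, which makes the values of single members uncertain. Mup17 had 42.7, 279 and 6.83 FPKM in the RE livers, 0.0248, 4.72 and 0.004 FPKM in the KO livers and 31.7, 185 and 155 FPKM in the WT livers. Mup14 had 0, 0 and 26.7 FPKM in the RE livers and 187, 75.0 and 280.3 FPKM in the KO livers, and it was listed at 0 in all 3 WT livers. Mup20, the most abundant of these 3, had 16575, 12378 and 5635 FPKM in the RE livers, against 13622, 7190.5 and 12051 FPKM in the KO livers, and the ranges overlapped. None was called.

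A pair of fibrillar collagen genes, chosen after their values were seen, had lower values in every RE liver at low FPKM. Col1a1 had 3.47, 1.71 and 2.70 FPKM in the RE livers, 5.38, 3.66 and 6.30 FPKM in the KO livers and 0.916, 1.81 and 1.09 FPKM in the WT livers, and Col1a2 had 3.16, 2.17 and 2.92 FPKM in the RE livers, against 5.25, 3.55 and 6.92 FPKM in the KO livers. The ranges of RE and KO were apart in both, and neither was called (adjusted p = 0.853 and 0.845). The 9 stellate cell and fibroblast markers, which hold both genes, summed to 73.3 to 112 FPKM in RE and 78.3 to 138 FPKM in KO, and these ranges overlapped. Rbm3, a cold-inducible RNA-binding protein, had 27.6, 28.2 and 40.0 FPKM in the RE livers, against 41.1, 49.2 and 44.7 FPKM in the KO livers, while Cirbp, its relative, had 9.05, 12.4 and 27.1 FPKM in the RE livers, against 18.4, 16.9 and 20.1 FPKM in the KO livers and overlapped. Chka, a choline kinase of phosphatidylcholine synthesis, had 52.7, 70.0 and 76.2 FPKM in the RE livers, against 51.0, 47.9 and 36.5 FPKM in the KO livers with ranges apart.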
